A study of Mus musculus with 3 samples.

Results

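The plasma cells and plasmablasts of the islet infiltrate were examined in single-cell RNA sequencing data from wild-type NOD mice, a strain that develops autoimmune diabetes spontaneously. Each library came from the pooled islets of 2 to 3 mice aged 15 to 16 weeks. The islets were dispersed, and living leukocytes (CD45+) were collected by flow cytometry. There were 3 libraries, replicates 1, 2 and 3, from 1 condition, with no other genotype or treatment, so each comparison below is between cell populations of the same libraries. The libraries held 5844, 9537 and 11566 cells with 33851381, 74775394 and 80806452 unique molecular identifiers (UMIs, each one counted transcript molecule). Members were chosen by their raw UMIs of a few marker genes in cells with at least 1000 UMIs and under 10% mitochondrial UMIs. They carried at least 5 UMIs of *Jchain*, at least 1 each of *Mzb1* and *Xbp1*, and none of the T-cell receptor complex genes *Cd3d*, *Cd3e* and *Cd3g* or of *Siglech*, a marker of plasmacytoid dendritic cells. This gave 83 members of 26947 cells, 46 in replicate 1, 14 in replicate 2 and 23 in replicate 3. Among the 26142 cells past the UMI and mitochondrial limits they made up 0.803% of replicate 1 (exact 95% binomial interval 0.589 to 1.07), 0.152% of replicate 2 (0.0832 to 0.255) and 0.205% of replicate 3 (0.130 to 0.308). The interval of replicate 1 did not overlap those of the other libraries, and these intervals cover counting error only. B cells for comparison had at least 2 UMIs of *Cd79a*, at least 1 of *Ms4a1* (CD20) and at most 2 of *Jchain*, and numbered 1860, 2256 and 1696.

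Plasma cells are B-lineage cells that secrete antibody, and plasmablasts are their dividing precursors. BLIMP1, IRF4 and XBP1 drive the change from B cell to plasma cell, in which PAX5 and the B-cell programme are turned off and the endoplasmic reticulum (ER) expands to fold and export immunoglobulin. B cells and autoantibodies are known features of islet inflammation in NOD mice.

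The members were deep cells. Their median was 21166 UMIs, against 6756.5 in the B cells and 5457 in 17069 T cells (at least 2 *Cd3* UMIs, no *Cd79a* or *Ms4a1*), and 82 of 83 had 6000 UMIs or more. The gate asks for a fixed number of *Jchain* UMIs whatever the depth of the cell, so depth and membership cannot be told apart. Levels are therefore given as CPM, UMIs summed per library and scaled to the usual fixed total over all genes other than immunoglobulin genes and *Jchain*.

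Immunoglobulin genes and *Jchain*, the joining chain of polymeric IgM and IgA, held 34.0%, 27.6% and 32.4% of the members' UMIs in replicates 1, 2 and 3 (31.3 ± 3.33%, mean ± SD, n = 3). The same share was 0.685%, 0.506% and 0.449% in B cells and 0.0242%, 0.0212% and 0.0264% in T cells. All 3 libraries of members lay far above both other populations, but single members did not form one range. In 60 members (36, 8 and 16 by library) immunoglobulin took between 3.20% and 80.5% of the cell's UMIs, with a median of 49.3%. In the other 23 members (10, 6 and 7) it took between 0.585% and 2.85%, with a median of 1.02%. Few members lay near 3%, a value that separates these ranges. The nearest had 2.85% and 1.33% below it and 3.20% and 6.71% above it. The 60 and the 23 cells are called immunoglobulin-high and immunoglobulin-low members here. The value of 3% was set after the shares had been seen, so the levels of these subsets are given as a description with no test between them.

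**Figure D1:**
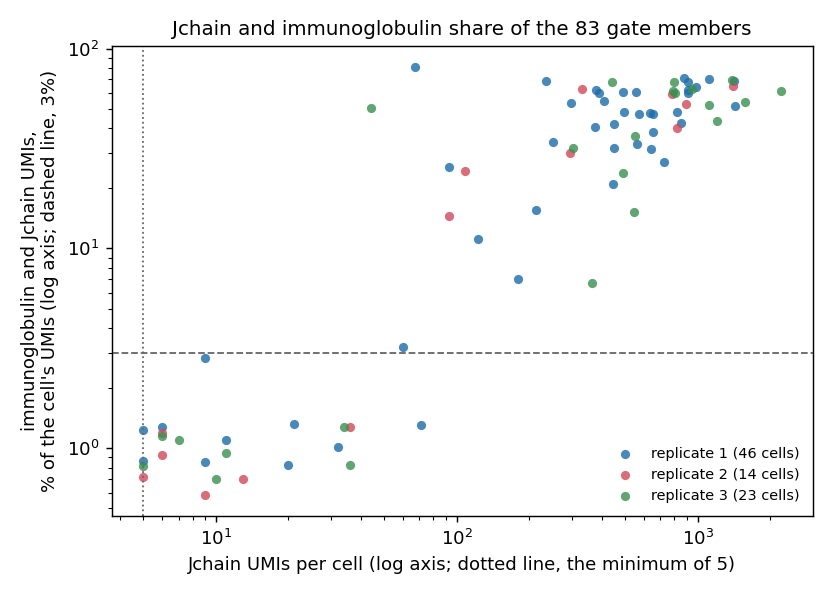
Each point is 1 of the 83 members, with its *Jchain* UMIs on the horizontal log axis and its share of immunoglobulin and *Jchain* UMIs in percent on the vertical log axis, coloured by library. The 60 members above the dashed line at 3% reach 80.5%, and all 12 members with fewer than 10 *Jchain* UMIs lie below it.

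The gate genes are given as values only, since they chose the cells and *Jchain* is counted in the immunoglobulin share. *Jchain* (chromosome 5, 88519809 to 88527891, minus strand of GRCm38) stood at 49268, 34481 and 67097 CPM in immunoglobulin-high members of replicates 1, 2 and 3. It stood at 1078, 547 and 692 CPM in immunoglobulin-low members and 7.37 ± 2.76 CPM in B cells. *Mzb1*, an ER cochaperone of immunoglobulin assembly, was at 11768 ± 2564 CPM in immunoglobulin-high members, 717 ± 191 CPM in immunoglobulin-low members and 229.9 ± 106 CPM in B cells. *Xbp1*, the transcription factor of the unfolded protein response, was at 1989 ± 171, 133 ± 68.2 and 80.1 ± 5.90 CPM in the same order. Just inside the *Jchain* limit, 4 members with exactly 5 UMIs had a median immunoglobulin share of 0.839%. Just outside it, 8 cells with 4 UMIs that met the other criteria had a median of 1.01%, so the limit runs through the immunoglobulin-low range.

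The name plasma cell was checked against *Sdc1* (CD138, chromosome 12, 8771323 to 8793715), the surface proteoglycan by which plasma cells are sorted, which the gate did not use. A UMI of *Sdc1* was found in 45 of 60 immunoglobulin-high members and in 0 of 23 immunoglobulin-low members, and 0.678% of T cells carried 1. After each cell was thinned to 1000 UMIs outside the immunoglobulin genes, the counts were 10 of 60, 0 of 23, 21 of 5812 B cells and 29 of 17069 T cells. The median total depth of the immunoglobulin-low members, 19652 UMIs, was close to that of the immunoglobulin-high members, 22448.5 UMIs. Outside the immunoglobulin genes the immunoglobulin-low members were deeper, with medians of 13451, 23910 and 20992 UMIs in replicates 1, 2 and 3. The immunoglobulin-high members had 7842, 15307 and 9465.5 such UMIs. The immunoglobulin-low members thus went against the label at *Sdc1*, and *Pax5* was detected in 17 and *Ms4a1* in all 23 of them. Of the 60 immunoglobulin-high members, 2 had a UMI of *Pax5* and 31 had one of *Ms4a1*. The immunoglobulin-low members are described by the rule that chose them and given no other name.

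Heavy-chain constant regions, which the gate did not use, separated the immunoglobulin-high members into classes. Of 60 members, 29 carried mainly IgG transcripts (14, 6 and 9 by library), 18 mainly IgM (14, 2 and 2) and 13 mainly IgA (8, 0 and 5). Within IgG, 14 members were IgG2b, 9 IgG2c and 6 IgG1, and no member was called IgG3, IgD or IgE. The class with most transcripts held at least 95.2% of heavy-chain constant UMIs in every one of these 60 cells, with a median of 99.8%, over a median of 1573.5 such UMIs per cell (150 to 5304). *Igkc* was also detected in 39.0%, 42.3% and 30.7% of T cells, which do not express it, at a summed immunoglobulin share of 0.0212% to 0.0264% of T-cell UMIs. Its source there was not tested. The immunoglobulin-low members had a median of only 28 heavy-chain UMIs, and with a class called where it held 50% or more of at least 5 UMIs, IgM was called in 11 cells, IgG1 in 7, IgG2b in 1 and IgG2c in 1, with 3 cells not called.

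Over all 83 members, IgG took 41.3% of replicate 1 (exact 95% interval 26.998 to 56.8), 50% of replicate 2 (23.04 to 76.96) and 52.2% of replicate 3 (30.6 to 73.2), a mean of 47.8 ± 5.75% (SD, n = 3). IgM took 36.2 ± 14.1% and IgA 13.0 ± 11.5% over the same libraries. The intervals of the libraries overlapped for each class, and the 0 IgA members of 14 in replicate 2 allow a share of up to 23.2%. *Jchain* made up a median of 10.3% of immunoglobulin and *Jchain* UMIs in IgA members (8.31% to 21.1%), 7.42% in IgM members (0.953% to 18.3%) and 4.94% in IgG members (1.24% to 11.8%). The ranges overlapped between the classes. The joining chain protein is part of IgM and IgA polymers and not of IgG. The median immunoglobulin share of the cell was 59.5% in IgG, 47.2% in IgM and 38.2% in IgA members. These medians pool the libraries, of which replicate 2 had no IgA member. No pair of classes had 10 members of each in 2 libraries, so no differences between classes were tested.

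**Figure D2:**
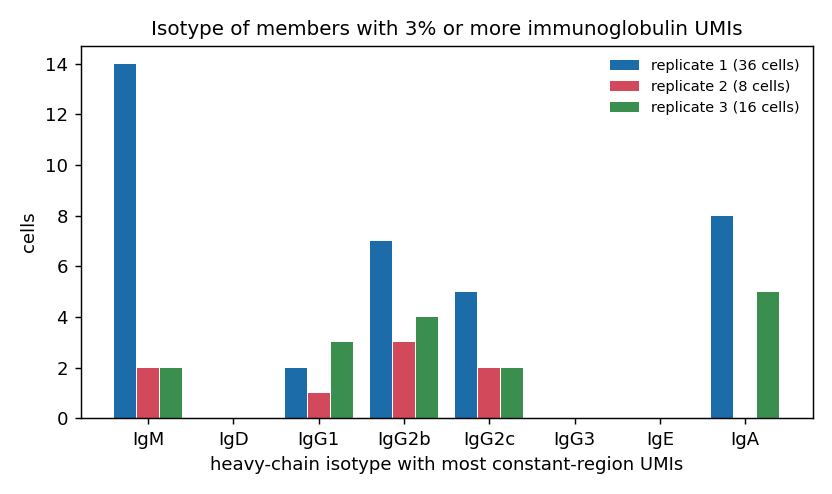
Bars count immunoglobulin-high members (vertical axis, cells) by the heavy-chain isotype that holds most of their constant-region UMIs, with 1 bar for each library. IgG2b has 14 members and IgM 18, of which 14 are in replicate 1, and replicate 2 has no IgA member.

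Expression of all 83 members was then compared with that of the B cells, with the library as a block, by edgeR's quasi-likelihood test with Benjamini-Hochberg adjustment over 10408 genes. Genes of the gate and all immunoglobulin genes stayed out of the test. Of all genes tested, 13.7% were higher in the members and 14.7% lower (1429 and 1529 genes, adjusted p under 0.05), and the median log2 fold change was -0.14. Without replicate 3 the numbers were 1056 and 989. Among plasma cell identity genes, 5 of 7 tested rose and none fell (median log2 fold change 2.67). Among plasma cell surface and secretory markers, 8 of 10 rose and 1, *Cd38*, fell (median 3.88). *Sdc1* stood at 94.4, 80.2 and 128 CPM in the members of replicates 1, 2 and 3 and at 3.28, 3.89 and 3.78 CPM in B cells (log2 fold change 4.79, standard error SE 0.28, adjusted p = 1.43e-10). Among the subsets it was at 134, 160.4 and 227 CPM in immunoglobulin-high members against 0 UMIs in immunoglobulin-low members, at least 25.7-fold higher on summed UMIs against a floor of 3 counts.

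*Prdm1*, which encodes BLIMP1, was at 91.0, 98.5 and 52.8 CPM in the members and 7.75, 7.29 and 8.67 CPM in B cells (log2 fold change 3.35, SE 0.29, adjusted p = 4.25e-08). All 100 of its UMIs were in immunoglobulin-high members, at least 20.7-fold above the immunoglobulin-low members. *Tnfrsf17*, the BCMA receptor through which plasma cells receive survival signals, was at 53.9, 14.6 and 91.7 CPM in the members and at 0 UMIs in 5812 B cells. This is at least 932-fold higher (adjusted p = 1.89e-08), and again all 69 UMIs came from immunoglobulin-high members. *Irf4*, a further factor of plasma cell differentiation, did not pass the test over all members, at 87.6, 40.1 and 72.3 CPM against 76.0, 69.8 and 71.6 CPM in B cells (adjusted p = 0.826). It was at 119.6, 65.6 and 119 CPM in immunoglobulin-high members, under the B cells in replicate 2 alone, and at 11.4, 14.6 and 12.7 CPM in immunoglobulin-low members, under the B cells of each library. *Pou2af1*, a coactivator of immunoglobulin transcription, rose by a log2 fold change of 2.69 (adjusted p = 2.66e-09) and stood at 296 ± 56.0 CPM in immunoglobulin-high and 214 ± 65.7 CPM in immunoglobulin-low members. *Ell2*, an elongation factor that favours the secreted form of immunoglobulin mRNA, rose by 1.25 (adjusted p = 0.000116), from 76.4 ± 19.8 CPM in B cells to 181 ± 36.5 CPM. The immunoglobulin-high members held 287 ± 69.7 CPM of it and the immunoglobulin-low members 36.5 ± 38.8 CPM. *Slamf7*, a surface receptor of plasma cells, rose by 3.04 (adjusted p = 1.08e-09), and *Txndc5*, a disulphide isomerase of the ER, by 4.68 (adjusted p = 7.95e-12).

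None of the 14 B-cell identity factors rose, and 8 fell (median log2 fold change -0.83). *Pax5*, the factor that maintains B-cell identity, was at 35.4, 69.3 and 69.5 CPM in the members and 163, 93.5 and 85.0 CPM in B cells (log2 fold change -1.01, SE 0.30, adjusted p = 0.015). Its level was 4.78, 0 and 4.95 CPM in immunoglobulin-high members and 108, 139 and 152 CPM in immunoglobulin-low members, so the immunoglobulin-low members lay in the range of the B cells. The call was lost without replicate 1 (log2 fold change -0.38, adjusted p = 0.372) and with DESeq2 (-0.94, adjusted p = 0.0698). *Ebf1*, which acts with *Pax5* in B-cell commitment, fell by 1.42 on the log2 scale (adjusted p = 5.90e-06). It stood at 70.9 ± 37.2 CPM in immunoglobulin-high, 628 ± 80.01 CPM in immunoglobulin-low members and 789.6 ± 68.8 CPM in B cells. *Ets1*, which restrains plasma cell differentiation, fell by 1.95 (adjusted p = 9.49e-08) and was below the B-cell level in both subsets, at 78.8 ± 23.1 and 256 ± 85.7 CPM against 588 ± 14.7 CPM. *Mef2c*, a factor of B-cell survival and proliferation, did not pass the test, with 719 ± 143 CPM in the members and 802 ± 237 CPM in B cells (adjusted p = 0.48), but was lower against the B cells without a *Cd3* UMI (log2 fold change -0.58, adjusted p = 0.00134).

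**Figure D3:**
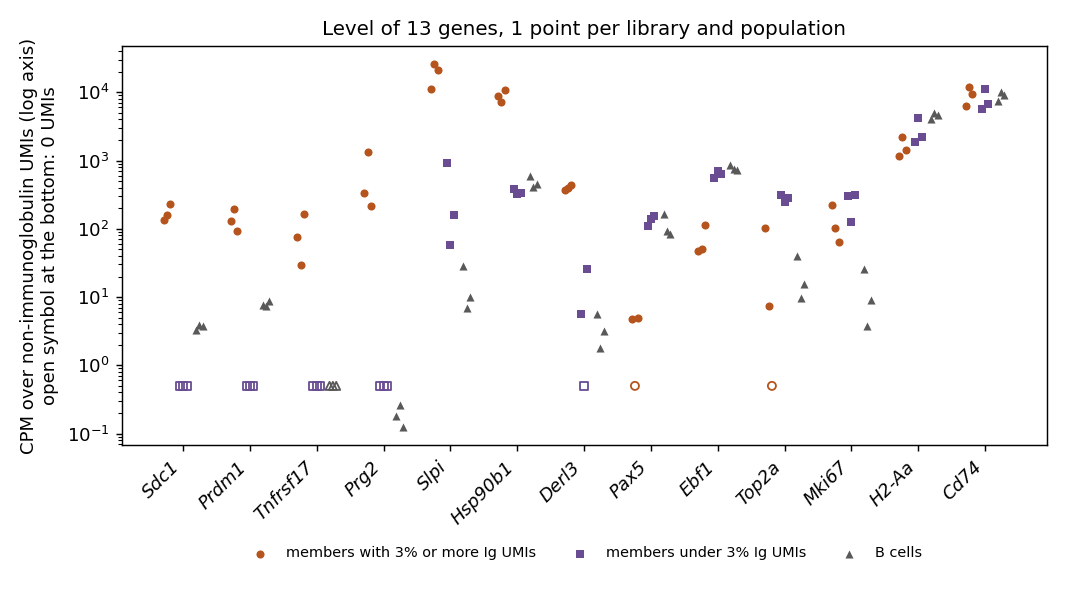
Points give CPM over non-immunoglobulin UMIs (vertical log axis) of 13 genes, 1 point for each library in immunoglobulin-high members, immunoglobulin-low members and B cells, with open symbols at the bottom for 0 UMIs. *Sdc1*, *Prdm1*, *Tnfrsf17* and *Prg2* have UMIs in the immunoglobulin-high members and 0 in the immunoglobulin-low members.

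The 10 largest increases among genes at or above 100 CPM in the members were led by *Prg2* (chromosome 2, 84980461 to 84983632), which encodes the granule major basic protein of eosinophils. It was at 238, 675 and 119.5 CPM in the members and 0.190 ± 0.0710 CPM in B cells (log2 fold change 10.78, SE 0.32, adjusted p = 1.73e-14). All 369 *Prg2* UMIs were in immunoglobulin-high members, where replicate 2 stood highest, and without that library the log2 fold change was 9.98. *Slpi* (chromosome 2, 164354070 to 164389095, minus strand), a secreted inhibitor of leukocyte proteases, was at 8249, 12953 and 11890.2 CPM in the members and 28.1, 7.02 and 10.2 CPM in B cells (log2 fold change 9.75, SE 0.38, adjusted p = 3.93e-13). It was at 11326, 25846 and 21032 CPM in immunoglobulin-high and 912, 58.3 and 159 CPM in immunoglobulin-low members, in each case above the B cells of the same library. Its log2 fold change was 10.50 without replicate 1 and 9.16 without replicate 2. *Mt1* and *Mt2*, metallothioneins that bind zinc, rose together, by 6.33 and 6.37 (adjusted p = 7.21e-13 and 1.04e-11). *Mt1* was highest in replicate 1, with 2216, 689 and 1137 CPM, and without that library the change of *Mt2* was 5.77.

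*Ly6c2*, a surface protein whose near-identical neighbour *Ly6c1* may share its reads, rose by 7.57 (adjusted p = 7.21e-13), and *Pon3*, a lactonase, by 6.45 (adjusted p = 1.66e-12). The ER proteins *Fkbp11*, a proline isomerase, *Selenom*, a selenoprotein, and *Derl3*, a channel component for retrieving misfolded proteins, rose by 7.43, 6.52 and 6.17 (adjusted p = 3.57e-14, 1.95e-12 and 9.55e-13). *Fkbp11* was at 717, 489 and 504 CPM in immunoglobulin-high members and had 0 UMIs in immunoglobulin-low members, a difference of at least 97.0-fold. *Eaf2*, a partner of the ELL elongation factors, rose by 5.43 (adjusted p = 6.39e-14) and was the one gene of the 10 with a level of the same order in both subsets, 616 ± 248 and 225 ± 83.5 CPM against 10.9 ± 5.27 CPM in B cells. Each of the 10 was higher in the members in 3 of 3 libraries.

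The machinery that makes, folds and moves secretory protein rose across almost its whole length. Of ER chaperones and folding enzymes 21 of 21 rose, of translocation and signal peptidase genes 17 of 20, of N-glycosylation genes 13 of 16, of ER-associated degradation genes 15 of 15 and of ER-to-Golgi transport genes 17 of 20. The list medians were 2.20, 1.72, 1.52, 2.01 and 1.63 on the log2 scale against -0.14 over all genes, and no gene of these 5 lists fell. Summed over the chaperone list, levels were 29303 ± 4937 CPM in immunoglobulin-high members, 2978 ± 848 CPM in immunoglobulin-low members and 3177 ± 120.2 CPM in B cells. The translocation list summed to 19902 ± 424, 3444 ± 579 and 2912 ± 119 CPM, and the degradation list to 8412 ± 787, 1271 ± 187 and 1119.7 ± 142 CPM. The glycosylation list summed to 6728 ± 303, 1422 ± 178 and 1252 ± 22.8 CPM, and the transport list to 5048 ± 207, 1205 ± 213 and 1295 ± 49.7 CPM. The immunoglobulin-high members thus lay above the B cells in all 5 lists, and the immunoglobulin-low members lay much nearer to them.

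*Hsp90b1* (GRP94, chromosome 10, 86690209 to 86705509, minus strand), an ER chaperone of immunoglobulin chains, was at 6365, 3741 and 6234 CPM in the members and 602, 414 and 454 CPM in B cells (log2 fold change 3.46, SE 0.11, adjusted p = 3.57e-14). In immunoglobulin-low members it was at 382, 321 and 330.0 CPM, below the B cells of each library. *Hspa5* (BiP), which holds unassembled heavy chains in the ER, rose by 1.77 (adjusted p = 1.16e-07), with 2289, 2122 and 5672 CPM in immunoglobulin-high members and replicate 3 highest. *Manf*, a cofactor of BiP, rose by 2.95 and *Ppib*, a proline isomerase, by 1.82 (adjusted p = 3.98e-12 and 1.39e-09). *Sec11c*, the catalytic subunit of signal peptidase, rose by 3.94 (adjusted p = 3.57e-14), *Ssr4* of the translocon-associated complex by 3.18 (adjusted p = 5.34e-13) and the channel subunit *Sec61b* by 2.42 (adjusted p = 4.61e-12). *Krtcap2* and *Dad1*, subunits of the oligosaccharyltransferase, rose by 2.76 and 0.94 (adjusted p = 1.38e-11 and 5.47e-05). Of degradation genes, *Edem1*, which recognises misfolded glycoproteins, rose by 3.85, *Herpud1* by 3.33 and *Selenok* by 1.63 (adjusted p = 8.63e-13, 1.07e-10 and 6.64e-08). *Tmed10* and *Tmed2*, cargo receptors of transport vesicles, rose by 1.91 and 1.31 (adjusted p = 6.43e-09 and 1.74e-06).

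**Figure D4:**
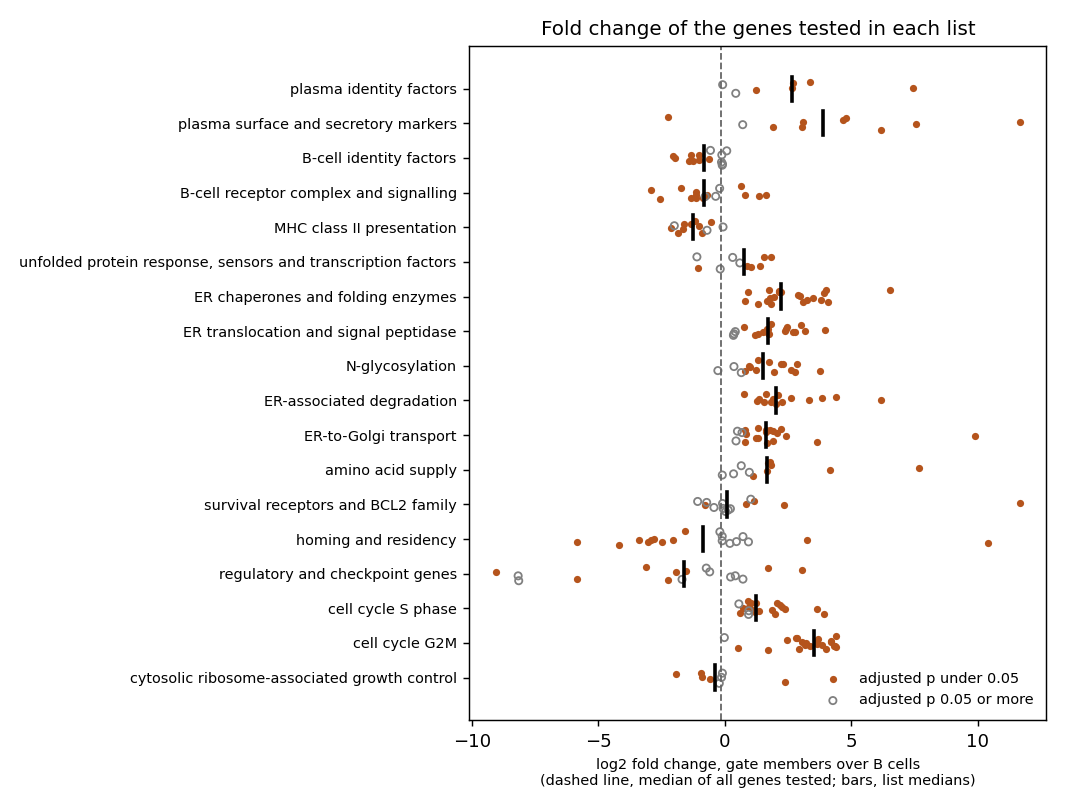
Each point is 1 gene tested, placed by its log2 fold change between the 83 members and the B cells (horizontal axis) within its gene list (vertical axis), filled where the adjusted p was under 0.05, with a bar at each list's median. All 21 chaperone and 15 degradation genes lie to the right of the dashed line at the all-gene median of -0.14, and no B-cell identity factor or MHC class II gene passed the test as higher.

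Sensors and transcription factors govern these genes. Of 10 unfolded protein response genes tested 5 rose and 1 fell (median 0.74), with *Xbp1*, a gate gene, left out. *Eif2ak3* (PERK) rose by 1.40, *Atf6* by 1.53 and *Atf4* by 0.89 (adjusted p = 1.45e-05, 2.24e-05 and 0.000544). *Atf6* was at 143, 175 and 168 CPM in immunoglobulin-high and 11.4, 14.6 and 25.4 CPM in immunoglobulin-low members against 42.4, 29.2 and 34.3 CPM in B cells.

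Promoters were searched for the ER stress response element, to which ATF6 and XBP1 bind together with NF-Y. The element, CCAAT followed after 9 bases of any kind by CCACG, was looked for on both strands from 250 bases before to 50 after each RefSeq start site (GRCm38.p6). It was found in 39 of 32851 promoters (0.119%). By gene, 13 of the 8215 genes tested that had a promoter sequence held it (0.158%). Of these 13, 9 rose (*Calr*, *Canx*, *Creld2*, *Derl3*, *Dnajc3*, *Hsp90b1*, *Hspa5*, *Pdia6* and *Syvn1*), none fell and 4 passed in neither direction (*Adcy3*, *Alg12*, *Hnrnpa3* and *Pan2*). Among the lists it was in 8 of 19 chaperone promoters (42.1%) and 2 of 14 degradation promoters (14.3%). A match is a description of the letters and does not show binding. The sequences of 6 of these genes are given to show where the element lies, with 20 bases on each side and the paired blocks CCAAT and CCACG in capitals.
Hsp90b1, chr10:86705618-86705676, minus strand: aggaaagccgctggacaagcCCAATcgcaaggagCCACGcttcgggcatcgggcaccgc
Hsp90b1, chr10:86705513-86705571, plus strand: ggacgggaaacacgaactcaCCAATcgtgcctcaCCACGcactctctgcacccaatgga
Hspa5, chr2:34772005-34772063, plus strand: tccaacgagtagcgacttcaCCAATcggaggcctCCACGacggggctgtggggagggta
Pdia6, chr12:17266471-17266529, plus strand: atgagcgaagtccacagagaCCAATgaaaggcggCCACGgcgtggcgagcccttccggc
Creld2, chr15:88819500-88819558, minus strand: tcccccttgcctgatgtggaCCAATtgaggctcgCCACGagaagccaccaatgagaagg
Derl3, chr10:75893222-75893280, minus strand: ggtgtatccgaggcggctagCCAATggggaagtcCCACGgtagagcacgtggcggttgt
Syvn1, chr19:6046512-6046570, plus strand: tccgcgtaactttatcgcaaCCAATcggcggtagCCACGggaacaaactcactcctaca
The element ended 193 and 88 bases before the start site of *Hsp90b1*, 46 before that of *Hspa5*, 79 before *Pdia6*, 107 before *Creld2*, 137 before *Derl3* and 25 before *Syvn1*. For *Derl3* alone among these genes, the bases just after the listed start site matched no transcript of the gene that was searched. *Hsp90b1* held a match on each strand.

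Genes of antigen recognition fell in part. Of 16 B-cell receptor and signalling genes tested 9 fell and 4 rose, *Blnk*, *Cd79b*, *Cd81* and *Plcg2* (median -0.81), and of 12 MHC class II presentation genes 9 fell and none rose (median -1.26). *Lyn*, a kinase of the B-cell receptor, fell by 1.32 and *Cd37*, a tetraspanin of mature B cells, by 1.15 (adjusted p = 3.11e-05 and 0.000181). *Cd79b*, the signalling partner of the receptor, rose by 0.64 (adjusted p = 0.00426), but at 421, 985 and 789 CPM against 401, 548 and 402 CPM the libraries overlapped, and without replicate 3 the call was lost (log2 fold change 0.48, adjusted p = 0.109). *Cd79b* did not pass against B cells without a *Cd3* UMI either (log2 fold change 0.20, adjusted p = 0.329). *H2-Aa*, a class II chain, was at 1377, 3165 and 1782 CPM in the members and 4006, 4919 and 4657 CPM in B cells (log2 fold change -1.18, SE 0.13, adjusted p = 7.46e-07). *H2-Ab1* and *H2-Eb1* fell by 0.90 and 1.01 (adjusted p = 6.93e-06 and 3.16e-05). Immunoglobulin-high members still held 1167, 2181 and 1424 CPM of *H2-Aa*, against 257 ± 105 CPM in T cells. *Cd74*, the invariant chain of class II, did not pass the test, at 8677 ± 2727 CPM in the members and 8951 ± 1411 CPM in B cells (log2 fold change -0.07, SE 0.08, adjusted p = 0.571), and was lower against B cells without a *Cd3* UMI (log2 fold change -0.51, adjusted p = 4.67e-05).

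Genes of amino acid supply rose in 7 of 11 cases (median 1.66). *Asns*, asparagine synthetase, rose by 4.17, *Phgdh* of serine synthesis by 1.72 and *Slc3a2*, a subunit of amino acid transporters, by 1.66 (adjusted p = 1.39e-09, 1.70e-06 and 1.83e-07), whereas *Slc38a2*, a neutral amino acid transporter, did not pass (log2 fold change 0.35, SE 0.19, adjusted p = 0.186). In the fit restricted to immunoglobulin-high members *Slc38a2* passed as higher (log2 fold change 0.62, adjusted p = 0.0117). *Phgdh* was at 199 ± 16.4 CPM in immunoglobulin-high and 170.3 ± 111 CPM in immunoglobulin-low members, both above the 55.0 ± 10.7 CPM of B cells. *Slc3a2* was at 559.6, 707 and 727 CPM in immunoglobulin-high members and 91.2, 65.6 and 69.8 CPM in immunoglobulin-low members, below the B cells in the latter. Of 8 genes of cytosolic growth control 4 fell, among them *Ncl*, nucleolin (fell by 0.59, adjusted p = 0.000709), and 1, *Eif4ebp1*, rose (median -0.41).

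Of 14 genes of survival receptors and the BCL2 family 4 rose and 1 fell (median 0.08). The receptors for BAFF and APRIL did not move together. *Tnfrsf13b* (TACI) rose by 1.17 (adjusted p = 0.000227), to 125, 98.5 and 106 CPM from 60.6, 40.3 and 46.4 CPM. *Tnfrsf13c* (BAFF receptor) did not pass over all members (log2 fold change -0.43, SE 0.19, adjusted p = 0.095), and its level was 86.1, 87.5 and 54.4 CPM in immunoglobulin-high and 245, 372 and 412 CPM in immunoglobulin-low members against 262, 245 and 248 CPM in B cells. It passed as lower in the fit restricted to immunoglobulin-high members (log2 fold change -1.71, adjusted p = 4.18e-11), with at least 10 *Jchain* UMIs (-0.89, adjusted p = 0.000215), against B cells without a *Cd3* UMI (-0.86, adjusted p = 0.00168), without cells of either population that held 2 or more UMIs of macrophage, T-cell or natural killer cell markers, that is, without RNA of other cells (-0.83, adjusted p = 0.00215), and in 3 further alternatives. TACI was at 158, 182 and 158 CPM in immunoglobulin-high members, above the B cells of each library, and at 45.6, 14.6 and 38.1 CPM in immunoglobulin-low members, below them. *Mcl1*, on which plasma cell survival depends, and *Bcl2l11* (BIM), its proapoptotic opponent, did not pass (log2 fold changes 0.22 and -0.09, adjusted p = 0.265 and 0.694). In the fit restricted to immunoglobulin-high members *Mcl1* passed as higher (log2 fold change 0.44, adjusted p = 0.0308).

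Of 18 homing and residency genes 9 fell and 2 rose (median -0.88). *Ccr7*, which guides cells to lymphoid T zones, was at 43.8, 94.8 and 13.9 CPM in the members and 365, 561 and 663 CPM in B cells (log2 fold change -3.41, SE 0.30, adjusted p = 4.94e-08), and *Klf2*, a factor of recirculation, fell by 2.03 (adjusted p = 9.59e-05). Without replicate 3 these changes were -2.79 and -2.88. *Ccr10*, the chemokine receptor of mucosal plasma cells, was at 35.4, 7.29 and 122 CPM in the members (67 UMIs, all in immunoglobulin-high members) against 1 UMI in all B cells (adjusted p = 3.11e-08), and replicate 3 stood highest. *S1pr2*, which holds B cells in germinal centres, was at 35.4, 3.65 and 52.8 CPM against 3.83, 2.74 and 2.66 CPM in B cells (log2 fold change 3.25, SE 0.54, adjusted p = 0.000124), with 37 of its 41 UMIs in immunoglobulin-low members. In the fit restricted to immunoglobulin-high members *S1pr2* did not pass (log2 fold change 0.65, adjusted p = 0.702), and over all members it was 2.57 without replicate 3.

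The study concerns the receptor TIGIT, and checkpoint and regulatory genes were therefore examined. Of 16 tested, 6 fell and 2 rose (median -1.60), where 14.7% of all genes tested fell and 13.7% rose. The list summed to 277 ± 32.0 CPM in the members and 568 ± 150 CPM in all B cells. In B cells without a *Cd3* UMI it summed to 382 ± 85.4 CPM. *Entpd1* (CD39), an ectoenzyme that degrades ATP, was at 70.8, 69.3 and 88.9 CPM in the members and 10.9, 8.88 and 8.11 CPM in B cells (log2 fold change 3.04, SE 0.28, adjusted p = 6.64e-08), and 92 of its 93 UMIs were in immunoglobulin-high members. *Tigit* had 2 UMIs in all members and 5.28 ± 0.993 CPM in B cells (adjusted p = 0.22), and its partner receptor *Cd226* had 0 UMIs and 4.13 ± 0.383 CPM (adjusted p = 0.0502). *Cd226* passed as lower in 5 alternatives, with adjusted p from 0.0281 to 0.0466. *Pvr*, which encodes their ligand CD155, had 6 UMIs in the members and 7.81 ± 1.13 CPM in B cells (log2 fold change -0.73, SE 0.68, adjusted p = 0.463). With 1227540 summed non-immunoglobulin UMIs in the members, 3 counts over all members correspond to 2.44 CPM. *Tgfb1* fell by 1.91 (adjusted p = 2.77e-06). *Il10*, the regulatory cytokine, was at 16.8, 7.29 and 0 CPM in the members, all 12 UMIs being in immunoglobulin-high members, and at 3.0996, 8.92 and 7.43 CPM in B cells (log2 fold change 0.72, SE 0.70, adjusted p = 0.487).

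Checkpoint genes of T cells depended on which B cells served for comparison. A *Cd3* UMI was present in 37.5% of the B cells and excluded from the members by the gate. *Lag3* (chromosome 6, 124904361 to 124911705, minus strand) was at 3.37, 7.29 and 11.1 CPM in the members (8 UMIs, 7 in immunoglobulin-high members) and 11.7, 26.99 and 23.96 CPM in B cells (log2 fold change -1.51, SE 0.47, adjusted p = 0.02). In B cells without a *Cd3* UMI it was at 0.613, 1.16 and 0.776 CPM, and against these *Lag3* was higher in the members (log2 fold change 2.95, adjusted p = 0.0179). *Ctla4* was likewise at 20.2, 18.2 and 13.9 CPM in the members, 91.0 ± 23.5 CPM in all B cells and 6.68 ± 0.0888 CPM in those without a *Cd3* UMI (log2 fold changes -2.25 and 1.35, adjusted p = 1.09e-05 and 0.0257). Both directions thus rest on the comparison population, and the lower call of *Lag3* was lost at folds of similar size without replicate 1 (log2 fold change -1.44, adjusted p = 0.0731), without replicate 2 (-1.38, adjusted p = 0.0728), with DESeq2 (-1.51, adjusted p = 0.0871) and without the library as block (-1.66, adjusted p = 0.0743). It was also lost in immunoglobulin-high members alone (-0.92, adjusted p = 0.266). *Pdcd1* (PD-1) had 1 UMI in the members and 54.4 ± 24.3 CPM in B cells (log2 fold change -5.86, adjusted p = 9.44e-07), a call lost when cells of both populations with RNA of other cell types were left out (log2 fold change -1.45, adjusted p = 0.465). It was at 3.01 ± 1.44 CPM in B cells without a *Cd3* UMI, and against these it did not pass the filter on low counts and was not tested.

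Cell cycle genes rose in the members, 17 of 20 S-phase and 21 of 22 G2/M genes (medians 1.21 and 3.52), and none fell. The S-phase list summed to 2887 ± 1654 CPM in immunoglobulin-low members, 732 ± 172 CPM in immunoglobulin-high members and 641 ± 92.1 CPM in B cells, and the G2/M list to 4477 ± 1382, 1145 ± 868 and 702 ± 176 CPM. The immunoglobulin-low members thus held the higher level of both lists. In immunoglobulin-high members the S-phase sum was 928, 605 and 663 CPM, against 742, 561 and 621 CPM in the B cells of replicates 1, 2 and 3. Their G2/M sum was 2119, 452 and 865 CPM against 904, 578 and 625 CPM, so above the B cells in replicates 1 and 3 and below them in replicate 2. *Mki67*, the proliferation antigen, was at 246, 113 and 172 CPM in the members and 26.2, 3.799 and 9.04 CPM in B cells (log2 fold change 4.01, SE 0.27, adjusted p = 1.21e-09). *Top2a*, which untangles chromosomes before division, rose by 2.84 (adjusted p = 1.33e-07). It was at 308, 248 and 286 CPM in immunoglobulin-low and 103, 7.29 and 0 CPM in immunoglobulin-high members, and against B cells the latter alone did not pass (log2 fold change 0.75, adjusted p = 0.162). Of the 44 *Top2a* UMIs in immunoglobulin-high members, 24 were in 1 member of replicate 1, the one at 3.20% immunoglobulin. *Hmgb2*, a chromatin protein of dividing cells, rose by 1.70 over all members (adjusted p = 2.79e-07) and not in the immunoglobulin-high members alone (log2 fold change 0.077, adjusted p = 0.80). The replication genes *Dut* and *Mcm6* rose by 2.08 and 1.18 (adjusted p = 7.46e-07 and 7.61e-05). *Tubb4b*, a tubulin, rose by 0.53 (adjusted p = 0.0314), a call lost in most alternatives, among them those without replicate 1 (0.31, adjusted p = 0.24) and without replicate 3 (0.53, adjusted p = 0.155).

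Counted by cell, 17 of 83 members had a UMI of both *Mki67* and *Top2a*, 22.6 ± 5.64% over libraries (SD, n = 3), against 1.26 ± 0.758% of B cells. By subset the share was 53.8 ± 16.1% of immunoglobulin-low and 7.87 ± 6.85% of immunoglobulin-high members. In 1 random draw of 1000 UMIs per cell, 1 of 83 members and 8 of 5812 B cells retained both. These counts are too few, and depend too much on the draw, to compare the populations at matched depth. Among the 60 immunoglobulin-high members, those with *Mki67* were mostly cells with a smaller immunoglobulin share. The cells are described on either side of 40%, a value that was not planned, with no test. The member nearest below it, at 39.9%, held 2 *Mki67* UMIs, and the nearest above it, at 40.4%, held 0. Of 21 members under 40% immunoglobulin, 15 had an *Mki67* UMI and 10 had 2 or more, up to 42. The member at 3.20% immunoglobulin held 42 and the one at 6.99% held 31, out of 120 *Mki67* UMIs in all 60. Of 39 members at 40% or above, 7 had 1 UMI each. The former had a median of 20421 UMIs outside the immunoglobulin genes and the latter 7756, and the part of this depth difference in the counts was not tested. *Sdc1* was detected in 18 of 21 and 27 of 39 of the same cells.

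**Figure D5:**
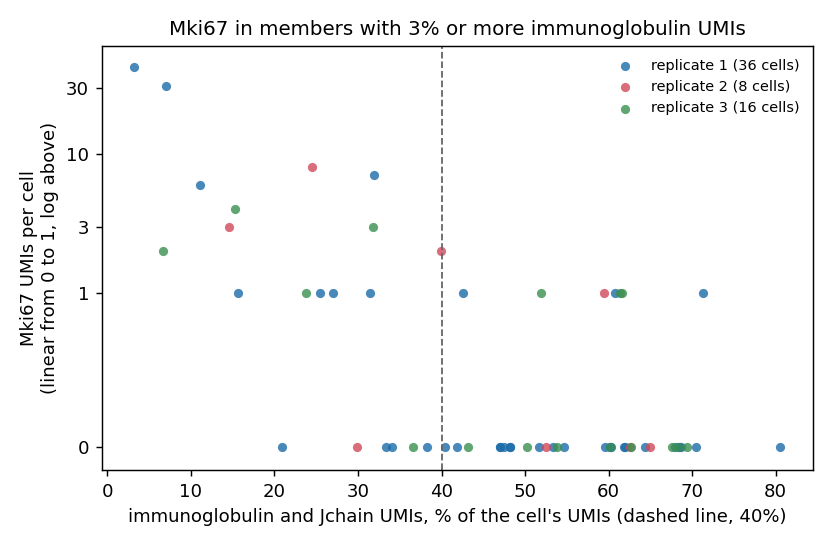
Each point is 1 of the 60 immunoglobulin-high members, with its immunoglobulin and *Jchain* share in percent on the horizontal axis and its *Mki67* UMIs on the vertical axis (linear from 0 to 1, log above), coloured by library. No member at 40% or above, right of the dashed line, has more than 1 *Mki67* UMI, and members under 40% reach 42. The 40% line was not planned.

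The 10 largest decreases among genes at or above 100 CPM in the B cells were in genes whose level was higher in T cells than in B cells, namely *Icos*, *Ikzf2*, *Ms4a4b*, *Rflnb*, *Trac*, *Il7r*, *Trbc2*, *Tnfrsf4*, *Ramp3* and *Fyb*, with 0 to 17 UMIs in all members. *Icos*, a costimulatory receptor, had 0 UMIs in the members against 102, 177 and 196 CPM in B cells, at least 68.1-fold lower, and *Ikzf2*, a factor of regulatory T cells, had 0 against 73.0, 120.3 and 138 CPM, at least 47.3-fold lower (adjusted p = 2.86e-09 and 1.89e-08). *Trbc2*, a T-cell receptor constant chain, was at 13.5, 7.29 and 19.5 CPM in the members and 292, 462 and 461 CPM in B cells (adjusted p = 3.85e-11). In T cells these genes stood at 466 ± 71.8, 287 ± 100.5 and 1631 ± 25.1 CPM. In the B cells without a *Cd3* UMI they stood at 5.52 ± 0.851, 2.02 ± 0.536 and 17.3 ± 3.29 CPM. Against those B cells *Trbc2* and *Trac* did not pass (log2 fold changes -0.34 and -0.70, adjusted p = 0.583 and 0.609), and neither did *Il7r* (-1.91, adjusted p = 0.0627), *Tnfrsf4* (0.33, adjusted p = 0.746) or *Fyb* (0.039, adjusted p = 0.964). The T-cell list as a whole fell in 8 of 8 genes tested and summed to 97.8 ± 21.2 CPM in the members, mostly *Cd2*, 1620 ± 256 CPM in all B cells and 143 ± 40.9 CPM in B cells without a *Cd3* UMI. Of the 2958 genes called against all B cells, 2328 were called in the same direction against B cells without a *Cd3* UMI, 1349 genes being higher and 1306 lower in that fit.

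Markers of other cell types were counted in the same way. The endocrine, acinar, endothelial and stromal genes among them, apart from *Pecam1*, mark CD45-negative cells, which a sort for CD45 removes. *Pecam1* was at a mean of 38.0 CPM in the B cells. Of 6 plasmacytoid dendritic cell genes tested 4 rose, *Bst2*, *Tcf4*, *Ly6d* and *Cox6a2*, and the list summed to 1454 ± 57.9 CPM in immunoglobulin-high members and 403 ± 79.8 CPM in B cells. *Siglech* was at 0 by the gate and *Klk1* was also at 0 in the members, and the part of such cells in these values was not tested. *Bst2*, an interferon-induced surface protein, rose by 2.04 and *Tcf4*, a factor shared with the B lineage, by 1.05 (adjusted p = 6.00e-08 and 5.26e-05). *Ly6d*, a surface protein of B-cell precursors, was at 698, 146 and 593 CPM in immunoglobulin-high members and at 0 UMIs in immunoglobulin-low members (log2 fold change of all members 1.09, adjusted p = 0.00356), and its call was lost without RNA of other cells (log2 fold change 0.34, adjusted p = 0.338), against B cells without a *Cd3* UMI (0.56, adjusted p = 0.139) and without replicate 3 (0.63, adjusted p = 0.095). Of 4 macrophage genes tested 1, *Ctss*, a protease of antigen processing that B cells also express, rose (by 0.47, adjusted p = 0.036, lost in 7 of 14 alternatives, among them without RNA of other cells, 0.23, adjusted p = 0.322, against B cells without a *Cd3* UMI, 0.21, adjusted p = 0.361, without replicate 2, 0.32, adjusted p = 0.222, and without replicate 3, 0.47, adjusted p = 0.184), and the 11 genes summed to 729.5, 579.8 and 336.3 CPM in the members with *Fcgr1* at 0. Of *Lyz2*, the C1q genes and *Csf1r*, 1 immunoglobulin-high member of replicate 1 held 115 UMIs and another 6. *Apoe* did not pass (adjusted p = 0.96), but was lower without RNA of other cells (log2 fold change -0.96, adjusted p = 0.0394). Of natural killer cell genes 0 of 4 tested rose and 1 fell, and of conventional dendritic cell genes 1 of 5 rose, *Fscn1*, and 1 fell. None of 4 islet endocrine genes passed, no acinar gene was tested, and *Pecam1*, the one gene tested of the erythroid, endothelial and stromal list, fell. Insulin RNA (*Ins2*) was the most abundant endocrine transcript in both populations.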

How the data were processed

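For every library the authors deposited a matrix of raw UMI counts, made from 10x 3' libraries with Cell Ranger 6.0.1 on the mm10 build, with 32285 genes listed and no cell annotation. Which library belongs to which of the 2 experiments that the methods name is not stated, so experiment was not a term of any fit. Python 3.11.15 and pandas 2.3.3 applied the gates to these counts. No doublet caller was run. Instead an alternative left out cells with 2 or more UMIs summed over *Lyz2*, *C1qa*, *C1qb*, *C1qc*, *Csf1r*, *Trac*, *Trbc1*, *Trbc2*, *Cd8a* and *Ncr1*. No cell barcode of a member was shared between libraries, although 12, 18 and 29 barcodes of all cells were shared between pairs of libraries.

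UMIs were summed per library and population, immunoglobulin genes and *Jchain* (393 genes) were left out of genes and library sizes, and edgeR 4.0.16 (R 4.3.3) fitted population with library as block, with TMM scaling and Benjamini-Hochberg adjustment, threshold 0.05. Within a library, members and B cells share their mice, and their deviations from the population means correlated in each library (r = 0.217, 0.126 and 0.112). Between members of 1 library and B cells of another, r ran from -0.205 to 0.0539. Centring on the population means makes the matched and unmatched values depend on each other. Libraries pool mice of 1 condition. With the library as block, p-values rest on how the difference between members and B cells varied over these 3 pools, moderated over genes by edgeR. DESeq2 1.42.0 was an alternative. Gene coordinates are from GENCODE M21 and promoters from RefSeq, both on GRCm38.

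The genes named in each list were those with the highest CPM, along with a fixed set of plasma cell and checkpoint genes and the 10 largest changes in each direction at 100 CPM or more. The members, the gene lists and the rule for named genes were chosen with earlier results of these data known. *Ccr10*, *S1pr2* and genes named only for their direction were added after their values had been seen. The result of 1 gene list is not reported here.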

Additional observations from a re-analysis of the deposited data

How the results depend on the processing

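Of 91 named genes, 78 passed the test, and 61 of these kept direction and call in each of the 14 alternatives in which they were tested (against B cells without a *Cd3* UMI *Cd226*, *Ikzf2*, *Il10*, *Pdcd1* and *Tigit* did not pass the filter). The number of genes lower was 922 with DESeq2 (1232 higher), and leaving out 1 library gave 1056 to 1392 genes higher and 989 to 1520 lower, the fewest without replicate 3. Without the library as block 1435 genes were higher and 1443 lower. Among the named genes this changed the direction of *Apoe* alone (0.085 on the log2 scale), and *Cd226* passed as lower (adjusted p = 0.0308). The calls of *Lag3* (-1.66), *Ctss* (0.46), *Tubb4b* (0.51), *Cd79b* (0.70) and *Ly6d* (1.24) were lost without the block, at folds of similar size. With a minimum of 10 *Jchain* UMIs the members' immunoglobulin share was 36.3%, the thinned cycling share 2.44% and *Irf4* 0.085. With B cells and members free of RNA of other cells, *Lag3* was 2.89, *Tnfrsf4* 0.053 and *Ctla4* 1.39. Against B cells without a *Cd3* UMI, *Lag3* was 2.95, *Ctla4* 1.35, *Tnfrsf4* 0.33 and *Fyb* 0.039. With 1 library left out, *Il10* ranged from -1.37 (without replicate 1) to 1.44, *Irf4* from -0.33 to 0.12 (without replicate 2) and *Apoe* from -0.53 to 0.44 (without replicate 3). In immunoglobulin-high members alone the immunoglobulin share was 43.6%, IgG 56.7%, *Irf4* 0.54, *Mef2c* 0.036 and *Cd74* 0.028. Allowing 1 *Cd3* UMI gave a thinned cycling share of 3.62% and *Bcl2l11* at 0.11, and the cycling share not thinned was 22.6%. The thinned share was 0.725% in the main setting. Each thinned share rests on its own random draw, whose part in these differences was not tested. The study's own limits on UMIs, genes and mitochondrial and ribosomal share left 1 member, 0.00620% of cells, and no other result could be given there. These 2 *Cd3* settings and the immunoglobulin-high fit were chosen after seeing the data. The immunoglobulin-high fit asked for 5 members per library, where the planned minimum was 10, and so kept replicate 2 with its 8 such members. The causes were not tested. The 3 pools and the 14 members in replicate 2 limit the precision.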

Other observations

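The gate left out many cells rich in immunoglobulin. Of 124 cells with 10% or more immunoglobulin UMIs, 57 were members and 67 were not, and 64 of the latter carried a *Cd3* UMI. These 67 cells (26, 19 and 22 by library) had a median of 29233 UMIs, against 22093 in the 57 members, and 48 of them carried 2 or more *Cd3* UMIs. *Sdc1* was detected in 51 of the 67 and 42 of the 57. Their median of 11 *Cd3* UMIs equalled that of T cells. Whether these barcodes held more than 1 cell was not tested.

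Light chains and heavy-chain variable genes of the immunoglobulin-high members were read as well. Lambda took under 10% of light-chain UMIs in 54 of 60 members and over 90% in 3 (91.5%, 99.6% and 99.95% of light-chain UMIs), and 3 had lambda shares of 16.8%, 29.0% and 52.4%. In 55 members with at least 5 variable-gene UMIs, 1 *Ighv* gene held 90% or more of them in 48, and 31 different genes were on top among the 55. *Ighv1-39* was the most frequent, in 6 members from all 3 libraries (1, 2 and 3), and *Ighv2-2* was on top in 4 members, all of replicate 1. The reference annotation is of C57BL/6, and its *Ighv* genes were not compared with those of NOD mice. The names therefore mark the annotated gene to which the reads were assigned.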
